A study of Mus musculus with 2 samples.

Results

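Glucose uptake, glycolysis, lactate production and the pentose phosphate pathway were described through 33 genes, chosen by their known function, among the 21983 gene entries of 1 RNA-seq library. All 33 names were found in the count table. Glycolysis splits glucose into pyruvate in the cytosol and yields ATP. Tumour cells often turn that pyruvate into lactate and export it. The pentose phosphate pathway branches off at glucose 6-phosphate: its oxidative arm yields NADPH, and its non-oxidative arm exchanges sugars between glycolysis and ribose 5-phosphate, the sugar of nucleotides.

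The cells were the mouse pancreatic ductal adenocarcinoma (PDAC) line 14837, of C57BL/6 background, cultured in DMEM containing 10% fetal bovine serum and penicillin. They were then kept for 48 h in conditioned medium, that is, medium in which other cells had grown. For 1 library that medium came from cancer-associated fibroblasts (CAFs), and for the other from 14837 cells themselves. Of the 2 value columns in the deposited table, 1 could be tied to the CAF-medium library by name. The other was not used, so all values are levels in cells kept in CAF medium, and nothing here measures an effect of the medium. There was 1 library, hence no replicate error and no test. Whether nucleosides or other contents of the medium acted on these genes, the subject of the series' title, was not tested.

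The library held 21269197 counts. Of 21979 genes with a single row, 52.6% had at least 10 counts, and so did 31 of the 33 members. A level is given as counts per 1000000 counts of the library (CPM), and levels of different genes are compared as CPM per kilobase of the transcript with the longest coding sequence, called the per-kilobase level. Intervals are exact Poisson 95% intervals of the count, cover counting error only, and allow neither for PCR copies nor for culture-to-culture spread. In bulk RNA, fewer cells with a transcript and less transcript per cell cannot be told apart. Of the 6 ductal epithelial markers examined, 5 were between 370 and 1819 CPM, while Epcam had 2 counts. Among 10 fibroblast markers 6 were listed at 0, among them Col1a2, Col3a1 and Dcn, but Pdgfra had 727 counts. The leukocyte, endothelial, red blood cell and acinar lists summed to 5.74, 0.235, 1.13 and 0.470 CPM. Some genes that most cells use, such as Atp5a1, were listed at 0, so a gene at 0 is described only as listed at 0.

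Several glycolytic genes have near-identical copies elsewhere in the mouse genome, most of them processed pseudogenes, and how the authors counted reads that match several places is not given in the sources used here. Each member's coding transcript was therefore searched for windows of 64 bases that also occur in transcripts of other genes. In 7 of the 33 members (21.2%) at least 10% of windows did, against 6.93% of the genes with at least 10 counts. The 7 include Ldhb, which was listed at 0. The highest shares were 89.5% for Gapdh, 69.1% for Eno1, 66.7% for Pgk1, 41.1% for Pgam1 and 20.8% for Pkm, followed by Ldhb at 19.2% and Gpi1 at 14.1%. In 21 members no window was shared. Exons of other genes overlapped at least 10% of the exonic bases of 6 members (18.2%), against 14.1% of genes with at least 10 counts. These were Pgls at 20.6%, Rpe at 17.9%, Pkm at 15.3%, G6pdx at 13.6%, Gpi1 at 11.5% and Pfkm at 10.7%.

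Gapdh stands out in this respect, with windows in 126 other genes, 122 of them annotated as pseudogenes. The count table lists 4 of the 126, each annotated as protein-coding. A window of 64 coding bases is shown for each of 2 members to let the reader see what such a copy looks like. The Gapdh window (GRCm38, chr6:125162878-125162941, minus strand) occurs letter for letter in 54 other genes. The Pgam1 window (chr19:41915677-41915740, plus strand) occurs in 2 other genes.
Gapdh: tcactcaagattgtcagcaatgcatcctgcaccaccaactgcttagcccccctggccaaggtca
Pgam1: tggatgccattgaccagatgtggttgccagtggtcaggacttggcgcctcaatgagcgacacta

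Together the members held 129164 counts, or 0.607% of the library (exact binomial 95% interval 0.604 to 0.611%). These counts were concentrated in few genes. Pkm alone held 31.8% of them, the 3 highest members 48.9% and the 5 highest 60.6%. The genes of lower glycolysis, from Gapdh to Pkm, held 39.9% of the member counts, upper glycolysis 25.9% and the lactate genes 19.5%. The oxidative and non-oxidative arms of the pentose phosphate pathway held 3.61% and 7.23%.

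The median per-kilobase level of the 31 members with at least 10 counts was 43.5, against 12.5 over all genes with at least 10 counts. Of these 31, 22 exceeded the latter. In CPM the medians were 92.4 and 37.9. At least 100 CPM was reached by 15 members, or 48.4% of the 31, against 23.7% of all genes with at least 10 counts. The members were chosen by function and with earlier results of this library known, so these figures describe the list. Per-kilobase levels spanned from 0.119 for Slc2a3 to 794 for Pkm among members with any counts. Of 30 neighbouring pairs in that order, 14 had intervals that did not overlap, and 16 had intervals that did. The order rests on the coding-transcript length, and other lengths can change it, as for Pfkp and Pfkm below. Overlapping runs were Ldha with Tpi1, Tkt through Slc16a3, Gpi1 and Pgk1 to Slc2a1, Pgam1 with Pgls, Hk2 through G6pdx to Hk1, Rpe with Pgd, Gapdh through Rpia, Pfkl and Pfkp to Pfkfb3, and Eno2 through Rbks and Pfkfb4 to Pdk1.

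**Figure D1:**
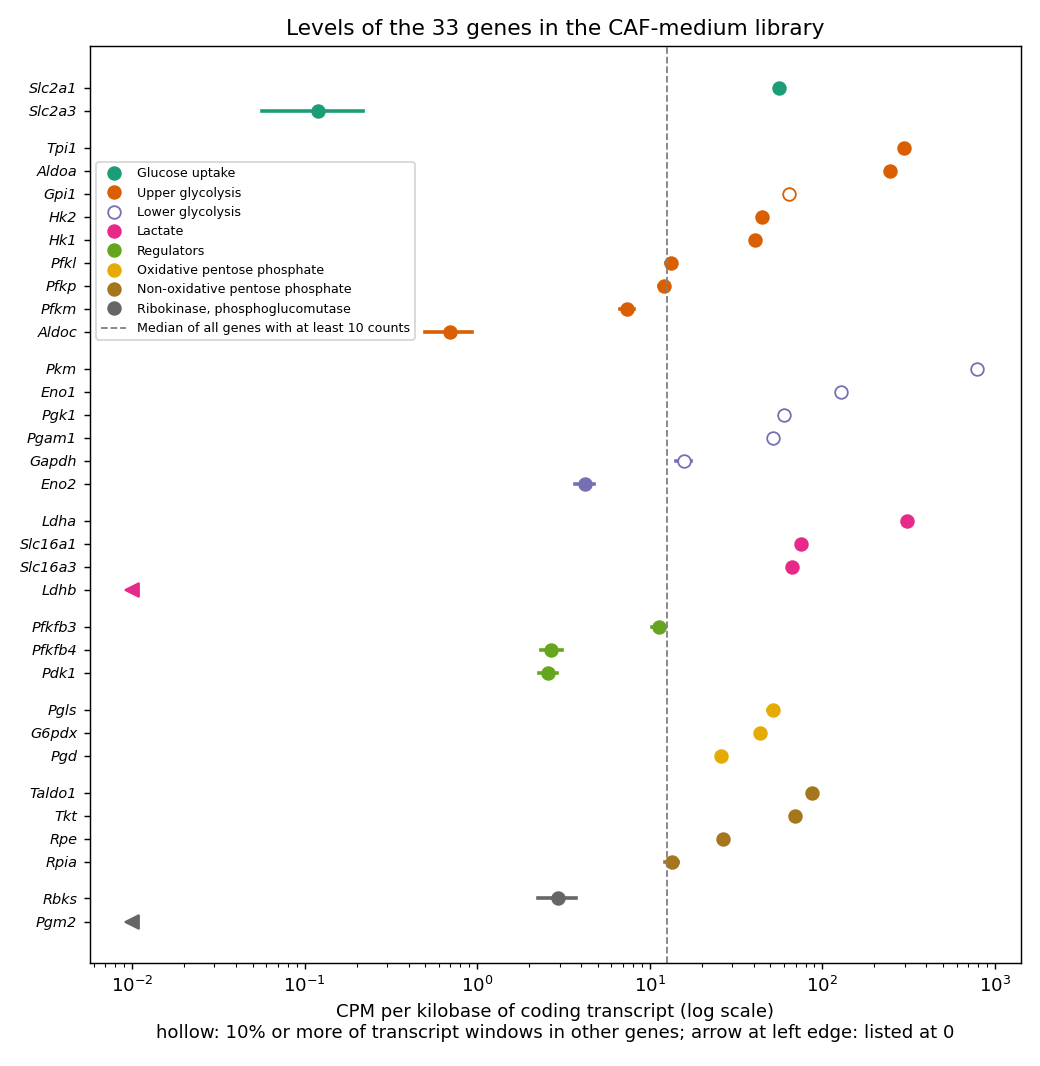
Per-kilobase level (CPM per kilobase of coding transcript, log scale) of each of the 33 genes in the 1 CAF-medium library, grouped by role. Lines are exact Poisson 95% intervals, hollow points mark genes with at least 10% of their transcript windows in other genes, and arrows mark the 2 genes listed at 0. Pkm lies highest at 794, and the 3 regulators lie left of the dashed median of all genes at 12.5.

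Transcripts of glucose transporters came mostly from 1 gene. Slc2a1, which encodes the widespread transporter GLUT1 (mm10, chromosome 4, 119108711 to 119137983, plus strand), had 3903 counts and a per-kilobase level of 56.3 (54.5 to 58.1). It held 88.6% of the summed per-kilobase level of 8 glucose transporter genes. Slc2a8, an intracellular transporter, followed at 5.24 and Slc2a6 at 1.87. Slc2a3, the high-affinity transporter GLUT3 best known from neurons, stood at 0.119 with 10 counts, so Slc2a1 was 474 times Slc2a3 (257 to 989), or 807 times with all exons joined. Slc2a2 and Slc2a10 were listed at 0, and the insulin-responsive Slc2a4 had 2 counts. The sodium-coupled transporters Slc5a1 and Slc5a2 had 1 count each.

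Hexokinases trap glucose in the cell as glucose 6-phosphate, and 2 of them were at close levels. Hk2, the inducible form (chromosome 6, 82725025 to 82774454, minus strand), stood at a per-kilobase level of 44.8 (43.6 to 46.1). Hk1, the housekeeping form (chromosome 10, 62268855 to 62379908, minus strand), stood at 40.9 (39.5 to 42.3). Hk2 was thus 1.10 times Hk1 per kilobase (exact 95% interval 1.05 to 1.15). With the length of all exons joined, the ratio was 2.24, so its size rests on the length chosen while its direction did not change. Hkdc1 was far lower at 4.32 and Hk3 had 5 counts. Adpgk, which phosphorylates glucose with ADP, stood at 21.8.

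Phosphofructokinase, which commits the sugar to glycolysis, was divided among 3 isozyme genes. The tetrameric enzyme is built from liver, platelet and muscle subunits. Pfkl, the liver-type gene, had 1053 counts, Pfkp, the platelet type, 1064 and Pfkm, the muscle type, 451. Their per-kilobase levels were 13.3, 12.1 and 7.37, or 40.6%, 36.9% and 22.5% of the step. Pfkp over Pfkl was 0.909 per kilobase (0.834 to 0.991), 0.503 with all exons joined and 0.434 with the longest transcript. Pfkp over Pfkm was 1.64 (1.47 to 1.83) but 0.588 with all exons joined and 0.782 with the longest transcript, so the order of that pair is not settled. Pfkl exceeded Pfkm under all 3 lengths, by 1.80, 1.17 and 1.80 times. The summed level of the step, 32.7, was the lowest from glucose uptake to lactate export apart from GAPDH at 19.7, a value that rests on a gene with 89.5% of its windows shared.

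The isomerase and the aldolase on either side of phosphofructokinase were higher. Gpi1, which turns glucose 6-phosphate into fructose 6-phosphate, stood at a per-kilobase level of 64.2 (62.2 to 66.3). Aldoa, the aldolase that splits the 6-carbon sugar, had 8100 counts and a level of 246 (241 to 251). Aldoc, the brain form, had 41 counts and a level of 0.692, which made Aldoa 355 times as high (262 to 496), or 221 times with all exons joined. Aldoa held 99.7% of the aldolase step. Tpi1, which interconverts the resulting triose phosphates, reached 298 (292 to 304) on 10186 counts. The gluconeogenic enzyme genes Fbp1 and Fbp2, which oppose phosphofructokinase, had 0 and 2 counts.

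**Figure D2:**
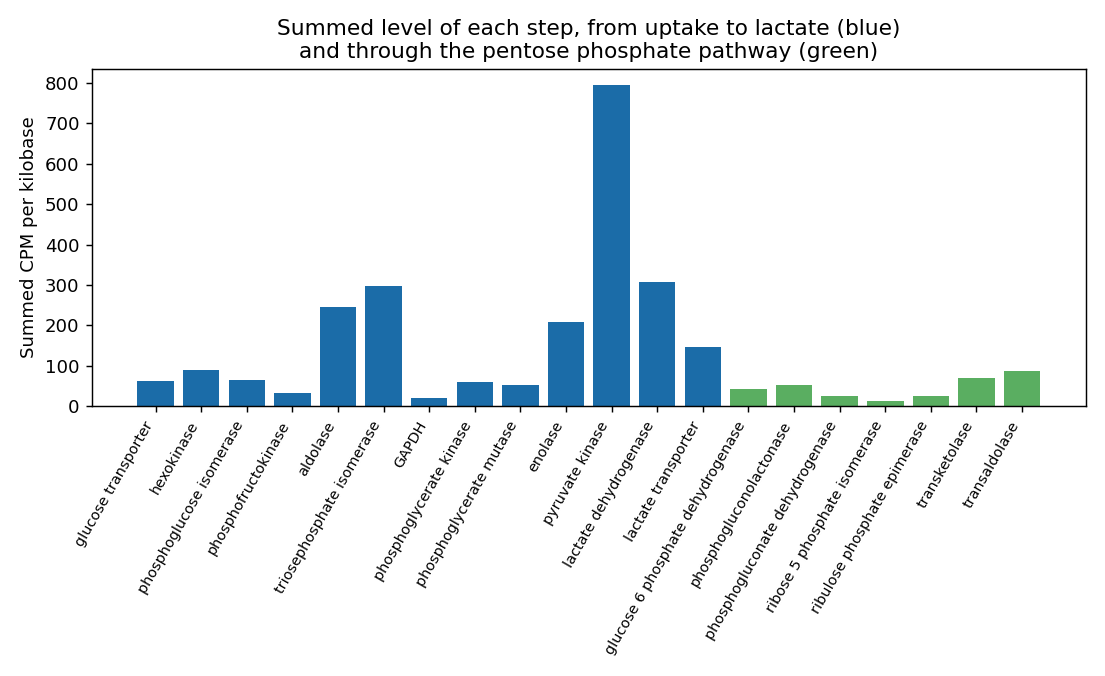
Summed per-kilobase level (CPM per kilobase, linear axis) of all listed genes of each step in the CAF-medium library, in pathway order. Pyruvate kinase is highest at 796, while phosphofructokinase at 32.7 and GAPDH at 19.7 are the lowest of the glycolytic steps in blue. Transaldolase at 87.4 is the highest of the pentose phosphate steps in green.

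Lower glycolysis held both the highest member and the members with the most shared sequence. Gapdh, which oxidises glyceraldehyde 3-phosphate and is widely used as a reference gene (chromosome 6, 125161715 to 125166467, minus strand), had 425 counts. Its per-kilobase level was 15.7 (14.2 to 17.3), above the median of 12.5 and at percentile 56.4 of genes with at least 10 counts. Not divided by length, its level of 20.0 CPM was below the median of 37.9 CPM and at percentile 34.8. Its neighbours in the pathway, Tpi1 at 298 and Pgk1 at 60.1, were well above it. The window shown above is 1 of those that other genes carry, and whether reads were lost to them was not tested. Of the 4 listed genes that carry Gapdh windows, Gm10358 holds 67.1% of them and had 1 count, and Gm3839 holds 53.9% and had 14 counts. Peli2, with 501 counts, and Gm15294, listed at 0, hold 3.95% and 2.63%. The sperm-specific Gapdhs, with no shared window, had 123 counts.

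In the steps that follow, from phosphoglycerate to phosphoenolpyruvate, 1 gene led each. Pgk1, phosphoglycerate kinase, had 2332 counts and a per-kilobase level of 60.1 (57.7 to 62.6), and Pgk2, its testis paralog, was listed at 0. Pgam1, phosphoglycerate mutase, had 1966 counts and a level of 52.1 (49.8 to 54.4), and the muscle form Pgam2 had 21 counts. Eno1, the ubiquitous enolase, stood at 129 (125 to 132) and held 62.0% of its step, or 40.3% with all exons joined. Eno2, the neuronal enolase, stood at 4.19, so that Eno1 was 30.8 times Eno2 (27.1 to 35.1), or 19.5 times with all exons joined. Eno3, the muscle enolase, stood at 37.4 with no shared windows. Eno1b, an intron-poor copy of Eno1 with 82.4% of its windows shared, was listed with 1424 counts, so the split of reads between Eno1 and Eno1b is uncertain. RefSeq also records Eno1 as an older name of Eno1b.

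Pkm, pyruvate kinase (chromosome 9, 59656368 to 59679375, plus strand), was the highest member, with 41059 counts, 1930.4 CPM and a per-kilobase level of 794 (786 to 801). It ranked 11th of all genes by counts and held 99.7% of its step, while Pklr, the liver and red cell gene, stood at 2.36. The table counts whole genes, so the M1 and M2 forms of Pkm, which differ by 1 exon, are not separated. Windows of Pkm recur in 2 pseudogenes, neither of which the table lists.

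**Figure D3:**
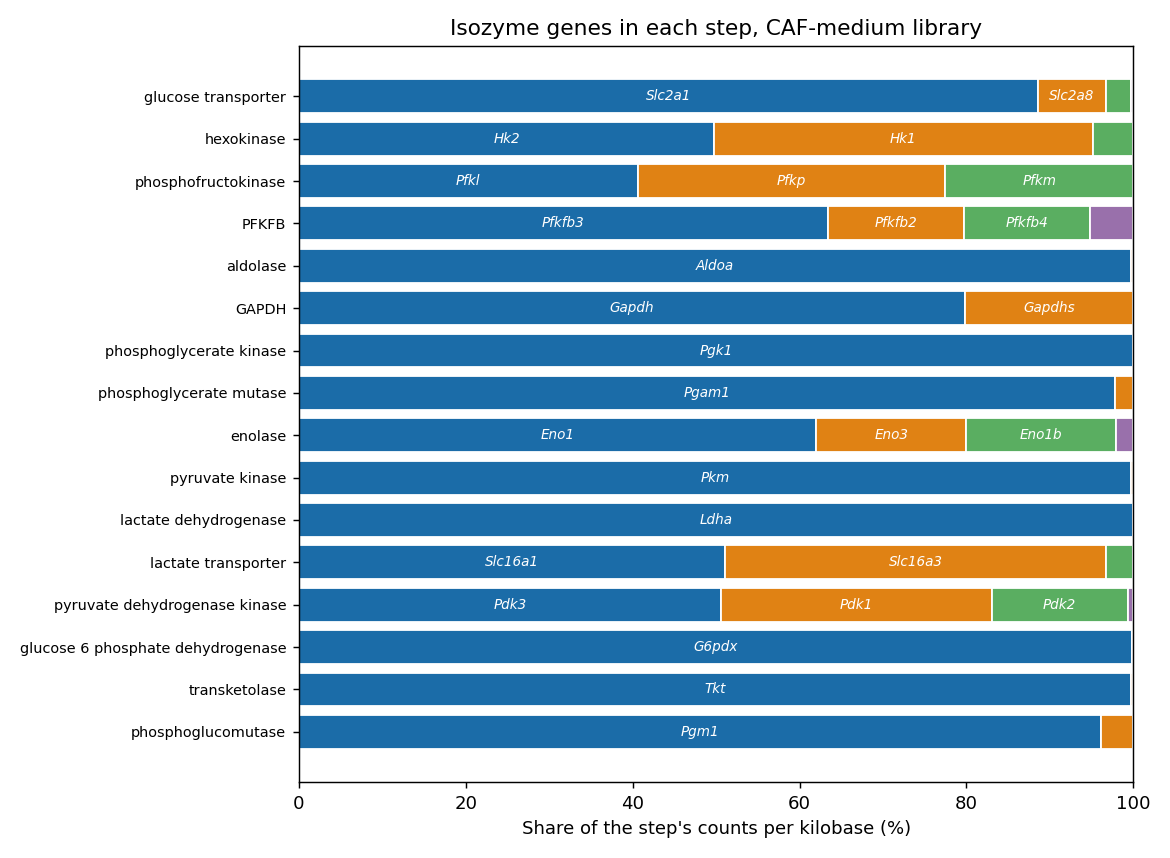
Share (%) of the summed per-kilobase level of each step held by each gene in the CAF-medium library, for the 16 steps with more than 1 listed gene. Shares are sorted from left to right and genes above 7% are named. In 8 steps 1 gene held at least 90%, while hexokinase, phosphofructokinase and lactate transport were divided between genes.

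Of the 16 steps with more than 1 gene and at least 1 member, 8 had a gene with at least 90% of the step: Ldha, Pgk1, G6pdx, Tkt, Aldoa, Pkm, Pgam1 and Pgm1. The share of Ldha rests on Ldhb and Ldhc being listed at 0, and why they were was not tested. Hexokinase and lactate transport were each carried mostly by a pair of genes at close per-kilobase levels. With all exons joined, however, Hk2 was 2.24 times Hk1. Pdk3, which is not a member, led pyruvate dehydrogenase kinase per kilobase, though Pdk1 had more counts. The row named Pgm1 led phosphoglucomutase, but which gene that row holds is uncertain because the names Pgm1 and Pgm2 were exchanged between annotations.

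Lactate dehydrogenase reduces pyruvate to lactate, and its 2 main subunits were at opposite ends of the member list. Ldha, the subunit that favours lactate formation (chromosome 7, 46841475 to 46855627, plus strand), had 11919 counts and a per-kilobase level of 309 (303 to 314). Ldhb, the heart-type subunit (chromosome 6, 142490249 to 142507957, minus strand), was listed at 0, for which the exact Poisson 95% interval reaches 0.173 CPM. That interval covers counting error only, and why Ldhb was listed at 0 was not tested. Windows of Ldhb recur in 1 other gene, a pseudogene, and make up 19.2% of its transcript windows. Ldhc, the testis form, was listed at 0 too.

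Lactate leaves the cell through monocarboxylate transporters, and both main exporters were high. Slc16a1, which encodes MCT1 (chromosome 3, 104638668 to 104658462, plus strand), had 7054 counts and a per-kilobase level of 74.9 (73.2 to 76.7). Slc16a3, which encodes MCT4 (chromosome 11, 120948480 to 120960868, plus strand), had 6171 counts and a level of 66.9 (65.3 to 68.6). The ratio of Slc16a1 over Slc16a3 was 1.12 per kilobase (1.08 to 1.16) and 1.37 with all exons joined. Slc16a1 held 51.1% and Slc16a3 45.7% of the step. Bsg, the chaperone that brings both transporters to the membrane, stood at 274, whereas Emb, an alternative chaperone, was listed at 0. Slc16a7, which encodes MCT2, was listed at 0 and Slc16a8 stood at 4.74.

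**Figure D4:**
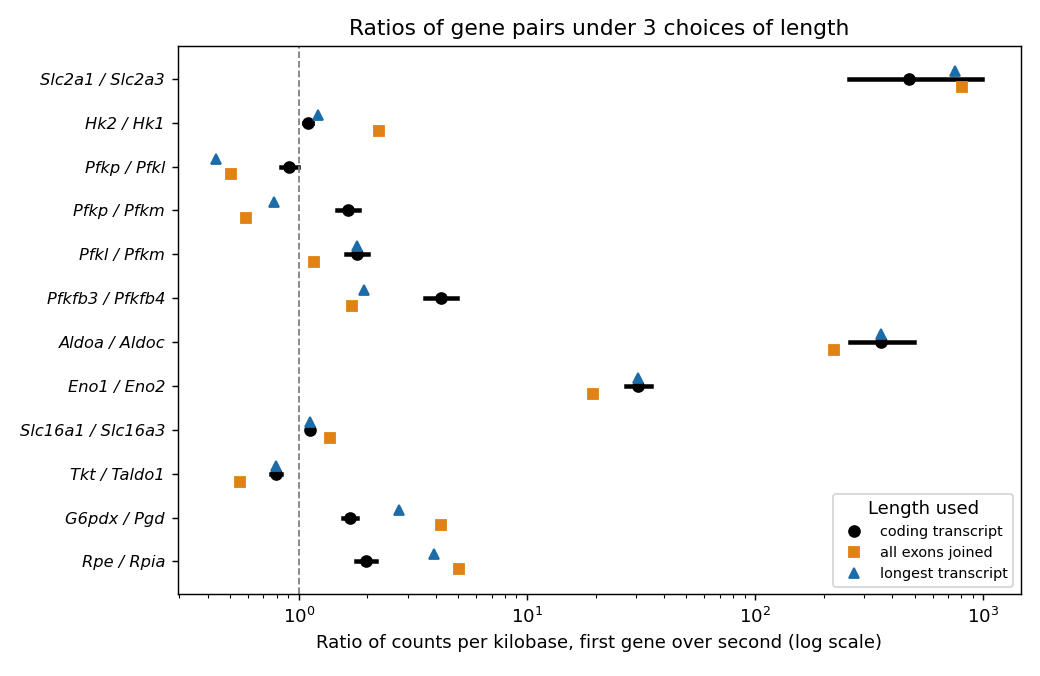
Ratio of counts per kilobase (log scale) for 12 gene pairs within the CAF-medium library, under 3 choices of length. Black lines are exact binomial 95% intervals for the coding transcript. Slc2a1 over Slc2a3 and Aldoa over Aldoc lie above 200 under each length, whereas Pfkp over Pfkm lies on both sides of the dashed line at 1.

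The 3 regulators among the members were all below the median gene. Pfkfb3, which makes fructose 2,6-bisphosphate, the main activator of phosphofructokinase (chromosome 2, 11471433 to 11554077, minus strand), had 533 counts and a per-kilobase level of 11.3 (10.4 to 12.3). Pfkfb4, a related enzyme, had 200 counts and a level of 2.70 (2.34 to 3.10). Pfkfb3 exceeded Pfkfb4 by 4.19 times (3.56 to 4.96), or by 1.72 times with all exons joined. Tigar, which degrades the same activator, stood at 7.56. Pdk1, a kinase that shuts pyruvate out of mitochondria by inhibiting pyruvate dehydrogenase, had 285 counts and a level of 2.58 (2.29 to 2.90). Pdk3 stood at 4.02, and Pdk4 had 4 counts. The phosphatase Pdp1, which reverses that inhibition, stood at 10.7.

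In the oxidative arm of the pentose phosphate pathway all 3 members exceeded the median gene. G6pdx, the X-linked glucose 6-phosphate dehydrogenase that opens the arm (chromosome X, 74409483 to 74429194, minus strand), stood at a per-kilobase level of 43.5 (41.8 to 45.3). Its autosomal retrogene G6pd2 had 2 counts. Pgls, the lactonase, stood at 51.7 (48.5 to 55.0). Its coding transcript has 893 bases, against 2688 for its longest transcript and 3770 for all exons joined. In CPM, Pgls at 46.2 was below Pgd at 57.7 and G6pdx at 115, so its rank rests on the length. Per kilobase of coding transcript, Pgd, which yields the second NADPH and ribulose 5-phosphate, was lower than both at 26.0 (24.6 to 27.5). G6pdx was thus 1.67 times Pgd (1.56 to 1.79), or 4.19 times with all exons joined. H6pd, which runs the first steps inside the endoplasmic reticulum, stood at 18.3.

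The non-oxidative arm ranged more widely. Taldo1, transaldolase, and Tkt, transketolase, shuttle carbon between sugar phosphates. Per kilobase of coding transcript they were the highest of the pathway, at 87.4 (84.0 to 90.9) and 69.3 (67.3 to 71.3). The place of Tkt rests on that length. Tkt had 1.88 times the counts of Taldo1, but per kilobase Tkt was 0.793 times Taldo1 (0.755 to 0.832). With all exons joined, that ratio was 0.554. The paralogs Tktl1 and Tktl2 had 8 and 0 counts. Rpe, the epimerase, stood at 26.5 (25.2 to 27.9), and Rpia, the isomerase that makes ribose 5-phosphate, at 13.4 (12.3 to 14.6). Rpe was thus 1.97 times Rpia (1.78 to 2.18), and 5.03 times with all exons joined.

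Rbks and Pgm2 handle ribose and ribose 1-phosphate, the sugars that nucleoside breakdown releases, and Rbks was below the median gene. Rbks, ribokinase, which phosphorylates free ribose, had 65 counts and a per-kilobase level of 2.93 (2.26 to 3.74). Pgm2 was listed at 0, while Pgm1 had 740 counts and a level of 13.8, and Pgm2l1 had 105 counts and a level of 0.559. RefSeq gives Pgm2 as an older name of Pgm1 and Pgm1 as an older name of Pgm2, and the table's annotation is not stated, so which of the phosphoglucomutase genes was at 0 is uncertain. Downstream of ribose 5-phosphate, Prps1, which makes the activated ribose used to build nucleotides, stood at 49.6 and Prps2 at 5.52.

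The other genes of these pathways were lower as a group. The count minimum of 10 was met by 32 of these 53, against 52.6% of all genes with a single row. The median per-kilobase level of the 32 was 5.38, against 43.5 for the members. Of the 53, 10 exceeded 12.5, the median of all genes with at least 10 counts. Genes under 10 counts, which the 53 include, do not enter that median. The share of all genes above it was not computed. Both lists were drawn up with results of this library known, so the gap is a description.

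The members lay on 16 chromosomes, with 7 of 33 (21.2%) on chromosome 6, which holds 5.10% of the table's placed genes. Eno2 and Tpi1 lie 40912 bases apart there, at per-kilobase levels of 4.19 and 298, and Gapdh lies 347418 bases beyond Tpi1. Eno2 and Tpi1, next to each other among the members on chromosome 6, thus lay at the low and high parts of the range.

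The 250 bases before a start site were read from RefSeq (GRCm38.p6) for 32 members, all but Slc2a3. The start nearest to that of the coding transcript was taken, and it lay up to 694 bases away, for Gapdh. The windows of Gapdh, G6pdx, Aldoa, Ldha, Pfkl, Pfkm, Pfkfb3, Slc16a3 and Tkt lie wholly inside the annotated gene. GC content of the 32 windows ran from 49.6% for Hk1 to 76.4% for Slc16a1. GGGCGG, the GC box known to bind SP1, was present on either strand in 23 of 32 members (71.9%). Among the 30 members with at least 10 counts it was present in 22 (73.3%), against 61.3% of 9130 genes with at least 10 counts. ACGTG, a form of the core of the sites that hypoxia-inducible factors bind, was present on either strand in 10 of the 32 (31.2%). It was present in 9 of the 30 (30.0%), against 22.0%. Other forms of that core were not searched for. CACGTG, the E-box known to bind MYC, holds ACGTG on both strands. It was present in 2 members, or 6.67% of the 30, against 8.58%. TATAAA was present in 1 member, Eno2, or 3.33% of the 30, against 6.22%. These letter counts are descriptions of the windows and do not show binding.

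The sequences of 4 promoter windows that hold ACGTG are given as examples. Pfkm, Aldoa, Pgk1, Pgam1, Slc16a3 and Pgm2 hold it too, whereas Hk1, Pfkl, Pfkp, Pfkfb4, Pdk1 and Ldha, among others, do not. Capitals mark ACGTG and GGGCGG on either strand. The 4 windows are those of Slc2a1 (chr4:119108495-119108744, plus strand), Hk2 (chr6:82774455-82774704, minus strand), Pfkfb3 (chr2:11502091-11502340, minus strand) and Slc16a1 (chr3:104638414-104638663, plus strand). The window of Pfkfb3 lies before an internal start, inside the gene. CACGTG occurs once in Pfkfb3 and once in Slc16a1, the 2 members with an E-box. These 4 were picked after their letters were seen.
Slc2a1: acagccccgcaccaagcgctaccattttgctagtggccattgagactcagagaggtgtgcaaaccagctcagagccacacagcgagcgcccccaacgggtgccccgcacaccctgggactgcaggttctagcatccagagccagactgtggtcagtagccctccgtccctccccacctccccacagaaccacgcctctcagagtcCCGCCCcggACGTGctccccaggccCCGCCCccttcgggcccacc
Hk2: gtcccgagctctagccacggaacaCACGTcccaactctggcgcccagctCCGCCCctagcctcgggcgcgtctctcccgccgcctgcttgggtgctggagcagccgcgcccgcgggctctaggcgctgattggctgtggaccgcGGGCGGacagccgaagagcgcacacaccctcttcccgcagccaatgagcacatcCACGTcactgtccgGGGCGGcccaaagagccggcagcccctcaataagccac
Pfkfb3: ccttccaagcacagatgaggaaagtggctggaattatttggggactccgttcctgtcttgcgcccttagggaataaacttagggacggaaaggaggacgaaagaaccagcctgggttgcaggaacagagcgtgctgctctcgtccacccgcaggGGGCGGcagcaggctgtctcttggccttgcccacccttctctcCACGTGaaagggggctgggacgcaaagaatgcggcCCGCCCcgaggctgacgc
Slc16a1: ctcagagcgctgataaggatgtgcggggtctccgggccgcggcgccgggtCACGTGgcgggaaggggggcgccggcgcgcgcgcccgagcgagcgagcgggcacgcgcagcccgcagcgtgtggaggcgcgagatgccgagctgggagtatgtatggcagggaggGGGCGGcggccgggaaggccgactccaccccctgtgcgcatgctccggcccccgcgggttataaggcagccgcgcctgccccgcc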

How the data were processed

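RNA of 14837 cells was sequenced, with 1 library per conditioned medium. The submitters' processing notes name HISAT2 2.1.0, StringTie and build mm10 without roles. No source used here gives the counter, the strand setting, the handling of reads that match several places, or whether values are reads, fragments or rounded estimates. Deposited by the authors were whole-number counts for each gene symbol, without scaling to a common total. The CAF column was tied to its library by the sample's title. The other value column matched neither library's labels, so 1 column was not used and the planned ratio between media was not made.

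Counts were divided by the column total and multiplied by 1000000. Poisson intervals and Clopper-Pearson intervals of count ratios used a level of 95%. Lengths, positions, exon overlap and shared windows (64 bases, every 16 bases, exact matches in transcripts of other, non-overlapping genes) came from GENCODE M21 (GRCm38), to which 21900 symbols (99.6%) matched. Unannotated copies were not searched. Entries with date-like names (26, with 0.225% of counts) stayed in the total. Of counts from 10 to 99, 36.0% were multiples of 3. Interval coverage was tested on Poisson counts simulated without PCR copies or culture-to-culture spread, so it checks the calculation alone. The window search was tested on simulated sequences. The members, lists and pairs were chosen with earlier results of these data known. All members are named. Of other pathway genes, up to the 2 highest of each step with at least 10 counts were eligible, and each one where a step's members had under 100 counts. Other genes, namely paralogs with few counts, the Gapdh copies, Epcam, Pdgfra and Atp5a1, were named after their values were seen. Tools were matplotlib 3.10.9, pandas 2.3.3, scipy 1.17.1, numpy 2.4.6 and Python 3.11.15. Some results on single genes and sequences are not reported here.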

Additional observations from a re-analysis of the deposited data

How the results depend on the processing

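The share of all counts held by the members was 0.615% with mitochondrial and date-like entries left out of the total, 0.347% without members with 10% or more shared windows, and 0.414% without Pkm, an alternative chosen after seeing the data. The median level of the members was 2.44 times that of all genes, 2.21 times with a minimum of 100 counts, 1.52 times without genes with 10% or more shared windows, 3.47 times per kilobase and 2.17 times without the highest member. With no minimum it was 76.5 times, since genes at 0 then enter the median of all genes. With no minimum the regulators moved from 0.354 to 14.3 times and the ribokinase and phosphoglucomutase group from 0.0806 to 1.63 times, for the same reason. Without its highest member the uptake group came to 0.0124 times, which is Slc2a3 alone. Lower glycolysis came to 0.308 times without shared-window genes, which left Eno2 alone.

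Among pairs, Pfkp over Pfkm was 0.588 with all exons joined and 0.782 with the longest transcript. In counts not divided by length, Pfkp over Pfkl was 1.01 and Tkt over Taldo1 1.88, since the lengths differ. In counts, Pdk3 held 34.0% of its step and Pfkl 41.0%, and neither led; this setting was added after seeing the data. The number of pairs with the first gene higher (11 of 13), of steps with 1 gene at 90% or more (8 of 16) and of members at 100 CPM (15) stayed within 1.5 times under every alternative run for them. TMM and median-ratio scaling and the minimum count for a ratio between media were not run, as 1 column was used. No paired analysis was possible because 1 library was used. At 100 counts the interval ran from 81.4 to 122, so Slc2a3, Aldoc and Rbks are the least precise members with counts.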

Other observations

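Regulators of glucose genes outside the member list were also measured. Hif1a, the oxygen-regulated subunit of hypoxia-inducible factor 1, had 9650 counts, or 454 CPM, and a per-kilobase level of 96.0. Txnip, which restrains glucose uptake and is known to be induced by glucose through MondoA and MLX, had 8039 counts and a per-kilobase level of 134, above that of every glucose transporter gene listed. Its paralog Arrdc4, another known MondoA target, had 11 counts and a level of 0.132. Mlx had 1046 counts and Mlxip, which encodes MondoA, 1634, while Mlxipl, the related liver factor, was listed at 0. The paralogs Txnip and Arrdc4 thus lay far apart in the same library, and 19.4% of the exonic bases of Txnip lie in exons of other genes. Whether those overlaps bear on its count was not tested.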
